A study of Rattus norvegicus with 12 samples.

Results

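The genes for 7 subunits of the GABA-A receptor, Gabra2, Gabra3, Gabra4, Gabra5, Gabra6, Gabrb2 and Gabrd, were followed in neuron-enriched cultures of rat cerebellum. A gene probe belonged to the set when its gene name in the array files was 1 of these 7. They were 7 of 26214 gene names in the annotation. Of 30367 gene probes on the array, 7 met this rule, 1 for each gene, and each was printed as 1 spot. The cultures came from Sprague-Dawley rats aged 1 day, and RNA was taken at 16 days in vitro. From day 2, 6 cultures received 1 µM acetamiprid (ACE), a neonicotinoid insecticide that acts on nicotinic acetylcholine receptors, and 6 control cultures received only the solvent. Dimethyl sulfoxide was present at 0.001% in both groups. Each replicate number stood for 1 culture experiment, in which the control and the ACE culture were made from the pooled cerebellar cells of 1 litter, so that an array describes a litter and not a single pup.

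GABA-A receptors are pentameric chloride channels opened by GABA, the main inhibitory transmitter of the brain. Most hold α and β subunits with a γ or a δ subunit. The α subunit sets where a receptor sits and how sensitive it is to GABA, and receptors with δ lie outside the synapse and carry a steady, tonic inhibition. In the cerebellum, α6 is a hallmark of mature granule cells, where it joins with δ, while α2 and α3 are better known from immature neurons and from other brain regions.

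The probes differed in how much of their sequence they shared, and 6 of them are shown because each value given here is the signal of 1 such stretch. Positions follow rn4, the build named in the file headers, whose files did not assign the probes to exons or untranslated regions. Capitals mark bases that are identical in the best ungapped overlap of Gabra2 with Gabra3 and of Gabra4 with Gabra6.
Gabra2: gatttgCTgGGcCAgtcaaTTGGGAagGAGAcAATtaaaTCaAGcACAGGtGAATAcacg
Gabra3: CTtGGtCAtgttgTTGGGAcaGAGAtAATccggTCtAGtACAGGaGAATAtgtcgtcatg
Gabra4: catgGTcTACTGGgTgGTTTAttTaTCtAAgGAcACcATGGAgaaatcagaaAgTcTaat
Gabra6: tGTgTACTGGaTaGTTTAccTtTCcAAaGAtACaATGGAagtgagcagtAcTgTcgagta
Gabra5: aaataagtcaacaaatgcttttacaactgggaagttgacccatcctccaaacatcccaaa
Gabrb2: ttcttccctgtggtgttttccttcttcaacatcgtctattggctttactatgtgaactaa

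The Gabra2 probe (chr14:39661796-39662852) and the Gabra3 probe (chrX:158416663-158422492) shared 33 of 54 overlapping bases (61.1%). Their 60 bases were spread over 1057 and 5830 bases of the genome, so both crossed an intron. The Gabra4 probe (chr14:39122375-39122434) and the Gabra6 probe (chr10:27474072-27474131) shared 31 of 57 bases (54.4%). The remaining probes lay at chr1:108844189-108844248 (Gabra5), chr10:27819086-27819145 (Gabrb2) and chr5:172203200-172203260 (Gabrd). Several of the genes are neighbours. Gabra6 and Gabrb2 share a cluster on chromosome 10, and probes of Gabrb1, Gabra4, Gabra2 and Gabrg1 lay within 1.42 Mb of chromosome 14.

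Over the 12 arrays, 75.4 to 91% of gene spots were well above background, and the arrays of replicate 1 were the brightest. Markers of the labelled cells were present. In the granule cell list 12 of 14 genes were well above background on all 12 arrays, each gene counted by its best probe. In the pan-neuronal list 9 of the 10 genes on the array were so, and in the astrocyte list 9 of 10. Of the Purkinje cell list, 7 of 11 genes were so, and Skor2 was well above background on no array. Skeletal muscle genes were also measured, with 7 of 12 well above background on all arrays. All 12 tested muscle probes had a lower mean in ACE, and the median of their log2 differences was -1.12, with 0 of them past the adjusted threshold of limma and 3 at an unadjusted p under 0.05. The mean difference over the muscle genes was -3.98 in the control and ACE pair of replicate 2 and -2.01 in that of replicate 6, and between -0.81 and 0.06 in the other 4 pairs. Without replicate 2, a setting chosen after seeing the data, the median was -0.70, with 11 of the 12 probes lower. The log2 of the summed muscle signal ranged from 14.6 to 16.8 in control and from 14.8 to 16.0 in ACE. Its part in the results below was not tested.

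The first comparison asked whether the subunits differed between control and ACE cultures. No subunit did so beyond the spread between pairs. The values are log2 signals, quantile normalised between arrays, which compare 1 probe across arrays and not 1 gene with another. Gabra2, Gabra6 and Gabrd were well above background on all 12 arrays, Gabra5 and Gabrb2 on 10, Gabra3 on 4 and Gabra4 on 2. In a culture, a change in the share of a cell type and a change of RNA per cell cannot be told apart.

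Gabra6, the α subunit of granule cells, had log2 signals from 4.80 through a median of 7.39 to 8.01 in control. In ACE they ran from 5.65 through 7.31 to 8.17. The groups overlapped almost fully, and both arrays of replicate 1 were the lowest of their group. Its difference was 0.15 ± 0.17 (SE, n = 6 pairs) (limma adjusted p = 0.681), and the ACE array was the higher in 4 of 6 pairs.

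Gabrd encodes δ, the partner of α6 outside the synapse. It had log2 signals from 6.66 through a median of 7.83 to 8.10 in control and from 6.73 through 7.87 to 8.07 in ACE. The lowest array of each group came from replicate 3, and the groups overlapped. With a difference of -0.02 ± 0.09 (SE, n = 6 pairs; limma adjusted p = 0.919), 3 pairs were higher and 3 lower in ACE. The higher ones were pairs 1 to 3 (mean 0.156) and the lower ones pairs 4 to 6 (mean -0.198), which shared a scan batch.

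Gabrb2 encodes β2, a common β subunit of synaptic receptors in the adult brain. Its log2 signals were 4.73, 5.01 and 6.06 (lowest, median and highest) in control and 4.69, 5.18 and 5.80 in ACE. The highest array of each group was replicate 1. The difference was 0.04 ± 0.08 (SE, n = 6 pairs; limma adjusted p = 0.836), again with 3 pairs in each direction. For Gabra6, Gabrb2 and Gabrd the 95% interval of the ratio of ACE to control stayed within 1.5-fold either way. It was 0.832 to 1.48 for Gabra6, 0.894 to 1.18 for Gabrb2 and 0.855 to 1.14 for Gabrd.

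**Figure D1:**
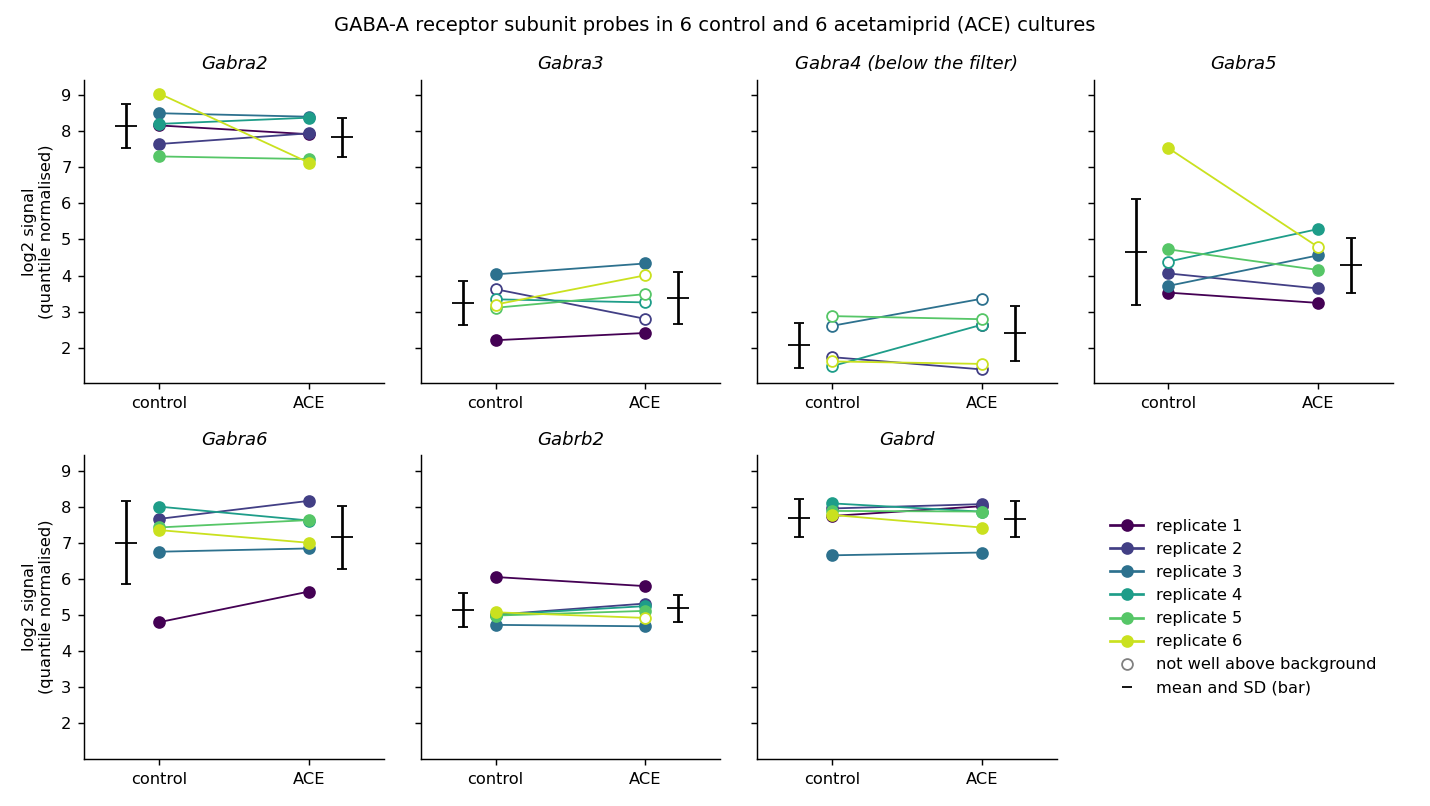
Log2 signal (quantile normalised; vertical axis) of the 7 subunit probes in control and ACE arrays, with a line for each culture experiment, mean and SD as black bars and open circles for spots not well above background. The line of replicate 6 goes from 9.04 to 7.13 in Gabra2 and from 7.53 to 4.78 in Gabra5, the steepest in either panel. Gabra4 has no point for control replicate 1.

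The α2 and α5 subunits had the lowest mean differences of the 6 tested, and in both 1 pair stood far from the rest. Gabra2, an α subunit of synapses that is abundant in young neurons, had log2 signals from 7.30 through 8.18 to 9.04 in control and from 7.13 through 7.93 to 8.40 in ACE. The highest control array and the lowest ACE array both came from replicate 6. The difference was -0.31 ± 0.29 (SE, n = 6 pairs; limma adjusted p = 0.612). Pair 6 alone differed by -1.92, while the other 5 pairs lay between -0.24 and 0.30. Without replicate 6 the difference was 0.01.

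Gabra5, the α subunit of many extrasynaptic receptors in the hippocampus, also had its highest control value in replicate 6. Its log2 signals ran from 3.53 through 4.22 to 7.53 in control and from 3.24 through 4.36 to 5.29 in ACE. Control replicate 6, at 7.53, stood well above the next control array at 4.72. The difference was -0.38 ± 0.48 (SE, n = 6 pairs; limma adjusted p = 0.708). Pair 6 differed by -2.74, and without it the difference was 0.10.

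The 2 spots on control replicate 6 also stood apart in their pixels. The extraction software leaves out pixels of a spot that are outliers before it averages the rest. On that array it left out 10 high pixels of the Gabra2 spot and 10 of the Gabra5 spot, against at most 1 and 3 on the other 11 arrays. Such spots were rare, with 50 of 28842 single-spot probes (0.173%) having 10 or more high outlier pixels there. Of these 50, 25 (50%) read at least 1.5 log2 units brighter than on ACE replicate 6, against 2.62% of the rest. Leaving out spots of this kind, an alternative chosen after seeing the data, removes only pair 6 for these 2 genes, so it nearly repeats the fit without replicate 6 (0.01 for Gabra2 and 0.09 for Gabra5). With normexp background correction the differences were -0.24 for Gabra2 and -0.20 for Gabra5. Taking the median in place of the mean of the pixels under that correction, also chosen after seeing the data, left them at -0.24 and -0.19. Over the pixels kept on control replicate 6, the SD was 20.5% of the mean for Gabra2, within the 14.5 to 20.6% of the other 11 arrays. For Gabra5 it was 29.2%, above their 17.5 to 25.2%. The part of the outlier pixels in the differences of pair 6 was not tested.

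**Figure D2:**
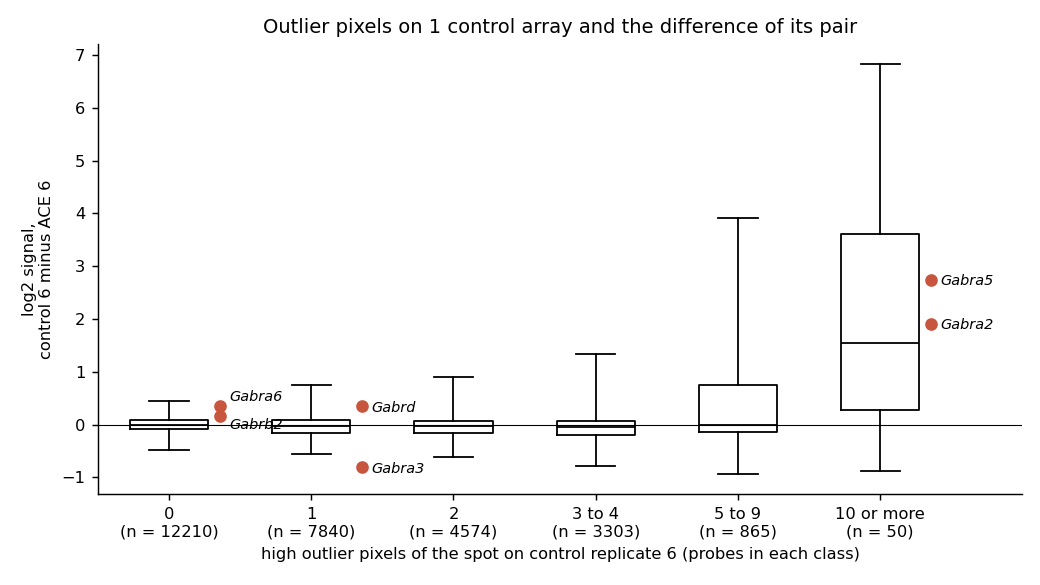
Log2 signal of control replicate 6 minus ACE replicate 6 (vertical axis) for single-spot probes grouped by the number of high outlier pixels of the spot on control replicate 6, with boxes for quartiles, whiskers for the 5th and 95th percentiles and red points for the 6 tested subunits. Medians stay near 0 up to the class of 5 to 9 pixels and reach 1.55 in the 50 probes with 10 or more, where Gabra2 and Gabra5 lie.

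Gabra3, an α subunit of synapses in the cortex and brainstem, was dim. Its log2 signals ran from 2.21 through 3.27 to 4.03 in control and from 2.41 through 3.37 to 4.33 in ACE, with replicate 1 lowest and replicate 3 highest in both groups. Only these 2 experiments gave a signal well above background. The difference was 0.13 ± 0.20 (SE, n = 6 pairs; limma adjusted p = 0.759), with 4 of 6 pairs higher in ACE.

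Gabra4, the usual partner of δ in thalamus and hippocampus, was below the filter on low signals and was not tested. It was well above background only on the arrays of replicate 1. There the control spot was marked as non-uniform and set to missing, at a processed intensity of 365 against 21.4 intensity units on the ACE array of the pair. In the other experiments the intensities were 2.97 to 7.49 in control and 2.27 to 9.91 in ACE, and log2 signals of the groups overlapped.

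Of the 6 tested subunits, 0 passed the adjusted limma threshold of 0.05, 0 had an unadjusted p under 0.05 and 0 had the same sign in all 6 pairs. Over all 23796 tested probes 0% passed the adjusted threshold, 16.6% had an unadjusted p under 0.05, and 11.7% of the 23580 with complete pairs had the same sign in all 6. Both marks together were met by 3.77% with a higher and 5.74% with a lower mean in ACE, and by 0 of the 6 subunits. The lowest adjusted limma p of any probe was 0.141. The median difference over the subunits was 0.01, with 3 higher and 3 lower, beside -0.00499 over all tested probes. When the signs of the 6 pair differences were permuted exactly (two-sided), p ranged from 0.5 to 0.844 for the tested subunits, where the smallest possible value is 0.03125. On every slide the control culture took place 1 and the exposed culture place 3, so place and exposure cannot be told apart.

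**Figure D3:**
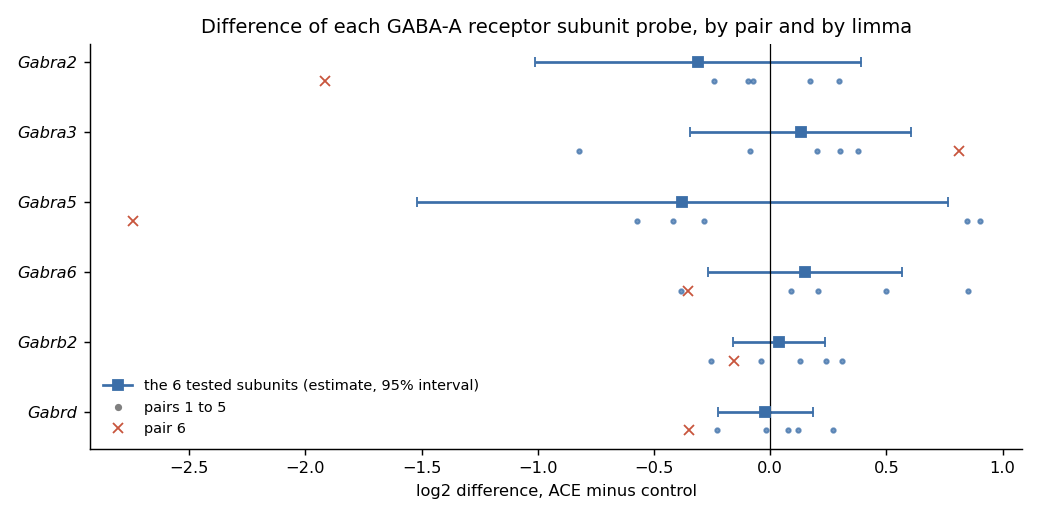
Log2 difference, ACE minus control (horizontal axis), of the 6 tested subunits, with squares for the limma estimate, bars for its 95% interval, dots for pairs 1 to 5 and crosses for pair 6. All 6 intervals include 0, and the crosses of Gabra2 (-1.92) and Gabra5 (-2.74) lie far to the left of their dots.

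The second comparison asked whether the subunits differed between the 6 culture experiments, whatever the exposure. Here 4 of 6 tested subunits passed the adjusted threshold in the moderated F test of limma, which 83.9% of all tested probes also did. They were Gabrd (adjusted p = 0.00127), Gabra6 (adjusted p = 0.00142), Gabrb2 (adjusted p = 0.00284) and Gabra3 (adjusted p = 0.0240). Gabra2 (adjusted p = 0.354) and Gabra5 (adjusted p = 0.129) did not pass. The count was 2 without replicate 1, also 2 without replicate 3, and 3 when arrays were shifted by their 75th percentile in place of quantile normalisation.

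The experiment that deviated was not the same for each gene. For Gabra6 the mean of the control and ACE array was 5.23 in replicate 1 and from 6.80 to 7.92 in the other 5. For Gabrd it was 6.70 in replicate 3 and from 7.60 to 8.01 in the others. Gabrb2 was highest in replicate 1, at 5.93, and lay between 4.71 and 5.17 elsewhere. Gabra3 was lowest in replicate 1 (2.31) and highest in replicate 3 (4.18) after quantile normalisation. Before it, the processed intensities of Gabra3 in replicate 1 were 14.7 in control and 17.6 in ACE. Those were above the 5.13 to 9.45 of replicates 4 to 6, so its low place in replicate 1 depends on the normalisation. Culture experiment and slide were the same factor. Replicate 1 was scanned apart and extracted with another software version, and its 75th percentile signals of 4272 and 4384 were the highest of their groups, so these cannot be told apart from the culture. Of the granule cell markers, 4 of 14 probes had their lowest and 4 their highest mean in replicate 1, and the log2 of the summed list was 13.5 and 13.3 in control and ACE there, against 12.8 to 13.8 over the other arrays. Cbln1, a member of that list, had its lowest mean in replicate 1, like Gabra6, at 8.44 against 10.2 to 10.9 elsewhere. Of the other neuronal lists, 6 of 11 Purkinje cell probes had their lowest and 1 its highest mean in replicate 1, as did 6 and 3 of 10 interneuron probes and 5 and 2 of 14 pan-neuronal probes. Among glial lists, 1 of 17 astrocyte probes was lowest and 11 highest there, against 6 and 0 of 16 oligodendrocyte probes and 5 and 6 of 15 microglial probes. Of the 12 skeletal muscle probes, 0 were lowest and 11 highest. The share of all tested probes with their lowest or highest mean in replicate 1 was not counted, so these counts give no measure of cell type shares. The part of these cell types in the subunit levels was not tested.

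**Figure D4:**
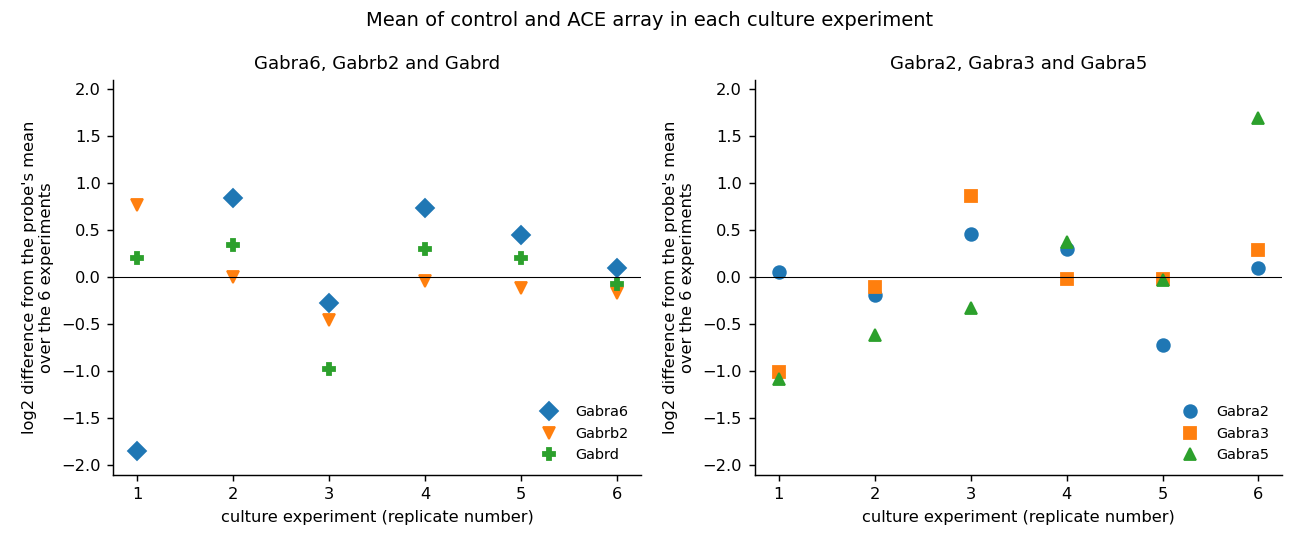
Mean log2 signal of the control and ACE array of each culture experiment, as the difference from the mean of that probe over the 6 experiments (vertical axis), by replicate number (horizontal axis), for the 6 tested subunits. Gabra6 is lowest in replicate 1, where Gabrb2 is highest, and Gabrd is lowest in replicate 3, where Gabra3 is highest.

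Over the 6 experiments, 15 pairs of subunits were correlated. For Gabra3 and Gabrb2 Pearson's r was -0.97 (exact permutation p = 0.00278, adjusted over the 15 pairs 0.0417) and Spearman's rho -0.94 (exact permutation p = 0.0167, adjusted 0.25), and r was -0.86 without the 2 experiments farthest from the median of Gabra3. Gabra3 was well above background in only 2 of these experiments, and r was -0.24 (exact permutation p = 0.507) when arrays were shifted by their 75th percentile in place of quantile normalisation. No other pair passed. For Gabra6 and Gabrd, which join in 1 receptor in granule cells, r was 0.19 (exact permutation p = 0.631, adjusted 0.788) and rho 0.66 (exact permutation p = 0.175, adjusted 0.438). With the 2 experiments farthest from the median of the first gene left out, r over the remaining 4 ranged from -0.97 to 0.98 among the 15 pairs, with 0.93 for Gabra6 and Gabrd.

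Genes with the most similar pattern were looked up by Pearson's r over the 12 arrays among 14631 probes with a gene symbol that were well above background on every array. As the arrays come in pairs that share cells and a slide, these r values are a description. Gabra6 was closest to Cbln1 (0.978), which encodes a synapse organiser secreted by granule cells, and to Fstl5 (0.973) and Plcxd2 (0.972). Without replicate 1 the r with Cbln1 was 0.890. Gabrd was closest to Cyfip1 (0.976), Sfrp2 (0.945) and Nefm (0.942), the last a neurofilament gene. Gabrb2 was closest to Mlph (0.962), Hrasls5 (0.958) and Trim26 (0.956), and Gabra3 to Exosc3 (0.947), Ubxn2b (0.928) and Dusp19 (0.923). Gabra5 was closest to Rere (0.952), Zswim3 (0.924) and Snx29 (0.914), and these r values were 0.795, 0.642 and 0.824 without replicate 6, whose control spot had the outlier pixels. Gabra2 had the loosest match, with 0.866 for Cml5, 0.835 for St8sia2 and 0.816 for Donson, or 0.819, 0.665 and 0.673 without replicate 6.

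Of the other 12 subunit genes on the array, 7 were tested and 0 passed the adjusted limma threshold. Gabrq, encoding θ, had a difference of -0.16 ± 0.05 (SE, n = 6 pairs; limma adjusted p = 0.210) and was higher in ACE in 1 of 6 pairs. The differences of Gabrb1 (0.13), Gabrg1 (-0.06) and Gabrr2 (0.18) had adjusted limma p-values from 0.437 to 0.566. Gabrg3, Gabre, Gabrp, Gabrr1 and Gabrr3 were below the filter.

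Around the receptor, 5 lists of 53 genes were read: the other subunits, scaffold and trafficking proteins, GABA synthesis and transport, the GABA-B receptor and the chloride gradient. Of their 71 tested probes, 0 passed the adjusted limma threshold. At an unadjusted p under 0.05, 8 were higher in ACE and 5 lower (18.3% in all), beside 6.9% and 9.73% of all tested probes (16.6% in all). Without the replicate block the count was 2 in place of 13.

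In the scaffold and trafficking list, 32 probes of 19 genes were tested, with a median difference of -0.01, and 5 had an unadjusted p under 0.05 with a higher and 4 with a lower mean in ACE. Iqsec3, an exchange factor at inhibitory synapses, differed by 0.39 ± 0.08 (SE, n = 6 pairs; limma adjusted p = 0.143) and was higher in ACE in 6 of 6 pairs. Shisa7, an auxiliary protein of the receptor, differed by 0.25 on 1 probe and by -0.25 and -0.23 on the other 2. Nlgn2, the neuroligin of inhibitory synapses, likewise differed by 0.27 on 1 probe and by -0.19 on the other. Gabarapl2, a relative of the receptor-associated protein, differed by -0.75 on 1 probe, lower in 6 of 6 pairs, and by -0.04 and 0.00344 on its other probes.

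Of the GABA-B receptor list, Kctd12, an auxiliary subunit, differed by 0.37 ± 0.06 (SE, n = 6 pairs; limma adjusted p = 0.141) and was higher in ACE in 6 of 6 pairs. The 6 other probes of that list lay between -0.02 and 0.09. Among genes of GABA synthesis, transport and breakdown, 7 of 10 probes had a higher mean in ACE and 1, of Aldh5a1, had an unadjusted limma p under 0.05 (difference 0.10, against -0.06 on its other probe). Gad1, which makes GABA, differed by 0.23 and 0.21 on its 2 probes, at adjusted limma p-values of 0.324 and 0.652. Of the 15 probes of the chloride gradient list, 0 had an unadjusted p under 0.05. Slc12a5, the neuronal chloride exporter, differed by 0.19 ± 0.09 (SE, n = 6 pairs; limma adjusted p = 0.351), and Slc12a2, the importer, by -0.01 and -0.00477.

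Among the granule cell markers, Cbln1 differed by 0.28 ± 0.09 (SE, n = 6 pairs; limma adjusted p = 0.228), higher in ACE in 6 of 6 pairs. The 14 tested probes of that list had a median difference of -0.02, with 9 lower and 5 higher in ACE. At an unadjusted limma p under 0.05, 2 were higher and 0 lower. Of the 11 Purkinje cell probes, 0 were higher and 2 lower in ACE at an unadjusted limma p under 0.05, and Pcp4 differed by -0.12. Of the 14 pan-neuronal probes, 1 was higher and 0 lower at that threshold. Of the 10 interneuron probes, 1 was higher and 0 lower, and the glycine transporter gene Slc6a5 differed by 0.33 on 1 probe and by -0.00423 on the other.

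Most astrocyte probes (13 of 17) had a lower mean in ACE, with a median difference of -0.07. At an unadjusted limma p under 0.05, 1 was higher, Gdf10 (0.20), and 1 lower, S100b (-0.12, against -0.02 on its other probe). Of the 15 microglial probes, 3 were higher and 1 lower at that threshold. Csf1r differed by 0.28 and -0.02 on its 2 probes, Aif1 by 0.19 and 0.10, and Cx3cr1 by -0.35. Of the 16 oligodendrocyte probes, 2 were higher and 1 lower, with Mbp at 0.13 and 0.03 on its 2 probes and Cnp at -0.13. The muscle genes Mb and Myog differed by -1.12 and -0.75. None of these probes passed the adjusted limma threshold (0 in each list).

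**Figure D5:**
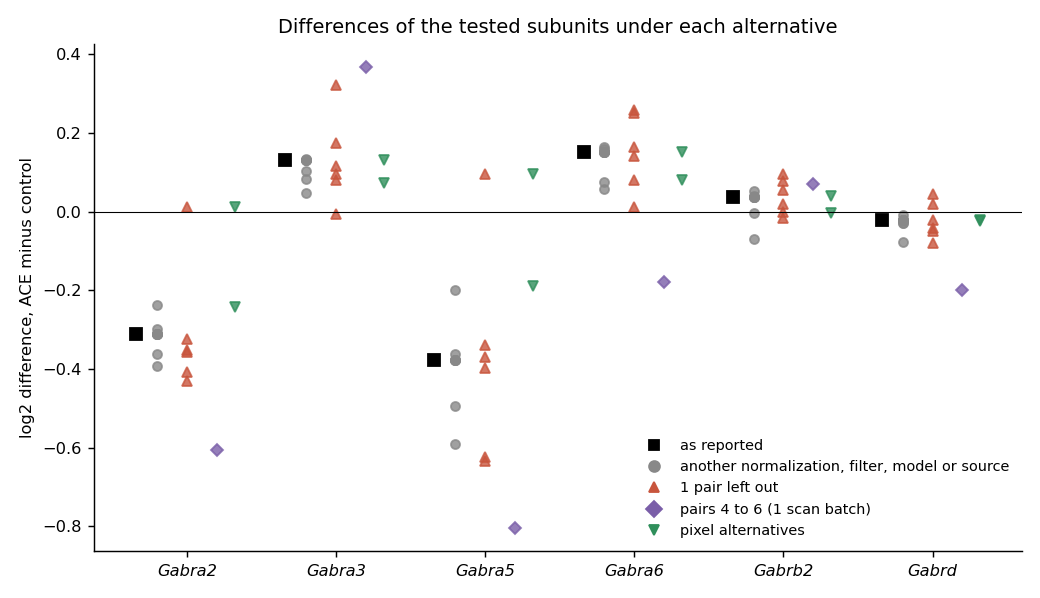
Log2 difference, ACE minus control (vertical axis), of the 6 tested subunits as reported (black squares) and under each alternative, with triangles for fits that leave out 1 pair and diamonds for pairs 4 to 6, which shared a scan batch. The points of every gene fall on both sides of 0 under some alternative, and 1 triangle lies above 0 for Gabra2 and for Gabra5.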

How the data were processed

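RNA of 12 cultures, 6 control and 6 ACE, was hybridised to 1-colour Agilent arrays. Per the file headers, the authors extracted spot intensities with Feature Extraction 11.0.1.1 (replicate 1) or 11.5.1.1 (other replicates), which subtracted background and removed spatial trends without scaling between arrays. The authors also deposited log2 values, quantile normalised and centred per probe, which were used as an alternative and correlated with the values computed here at 0.997 to 0.999 per array. Counts of pixels left out of a spot were read from the same deposited intensity files.

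Control spots were left out, and spots marked as non-uniform or as outliers were set to missing (447 probe values). Log2 processed intensities were quantile normalised, and spots of a probe averaged. Probes above the 20th percentile on at least 7 of 12 arrays with at least 4 complete pairs were kept (23796 of 30367). They were fitted with limma 3.58.1 in R 4.3.3, with the replicate number as a block, and Benjamini-Hochberg adjustment over all of them at 0.05. The pairing comes from the study's methods, and deviations from the group means correlated at 0.449 to 0.912 within numbers and -0.439 to 0.390 between them. The number of arrays limits the precision. The fit was tested on simulated data of 23580 probes with independent normal noise, where the changed probes were picked at random. There limma called 46 and 45 of 50 probes changed by -1 and 1 on the log2 scale. It called 41 and 46 of 50 changed by -0.585 and 0.585, and 10 of 23380 unchanged ones. All 6 tested subunits had a larger SE (0.083 to 0.475) than the median of 0.049 over all tested probes. The shares called therefore do not hold for these subunits. Probes were named from the annotation in the files, which for 3062 probes differed in the arrays of replicate 3, and not for the 7 subunits.

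The members and gene lists were chosen with earlier results of these data known. Named were all members, other subunits that passed the filter, up to 5 genes per list with an unadjusted limma p under 0.05 and 1 sign in all 6 pairs, and the 3 genes most like each member. Some genes that met these rules are not reported here. Others named (Slc12a2, Slc12a5, Gad1 and S100b) were chosen after their values were seen. Figures were drawn with matplotlib 3.10.9.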

Additional observations from a re-analysis of the deposited data

Results flagged for a closer look

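Within each group, the values of the 7 subunits were screened for an array whose gap to its nearest neighbour took up most of the range of the group, at a level that chance reaches in about 5% of groups. Of 14 groups 3 had such an array. For Gabra5 it was control replicate 6, with a log2 signal of 7.53 against 4.72 for the next. For Gabrb2 it was control replicate 1, at 6.06 against 5.08. For Gabrd it was control replicate 3, at 6.66 against 7.75, and the ACE array of replicate 3 was also the lowest of its group.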

How the results depend on the processing

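In every limma alternative 0 subunits passed the adjusted threshold, of 6 tested, or of 3 where probes had to be well above background on all arrays of a group. The signed-rank tests also gave 0. Gabra4, tested only without the filter on low probes, had a limma adjusted p = 0.664. Most differences kept their sign. Gabrb2 changed sign under the 75th percentile shift (-0.0695), under normexp background correction (-0.00465) and with the median of pixels (-0.00417). Gabra6 did so within the scan batch of replicates 4 to 6 (-0.178), and Gabra2 and Gabra5 with spots of 10 or more high outlier pixels left out (0.0109 and 0.0948). Within that scan batch, Gabra2 (-0.606), Gabra3 (0.368), Gabra5 (-0.804), Gabrb2 (0.0712) and Gabrd (-0.198) kept their sign, with differences larger in size than over all pairs. Leaving out 1 replicate gave -0.432 to 0.0109 for Gabra2, -0.00560 to 0.321 for Gabra3, -0.634 to 0.0951 for Gabra5, 0.0115 to 0.258 for Gabra6, -0.0159 to 0.0965 for Gabrb2 and -0.0793 to 0.0447 for Gabrd. The sign turned without replicate 6 for Gabra2, Gabra3, Gabra5 and Gabrd, without replicate 4 for Gabrd and Gabrb2, and without replicate 2 for Gabrb2. Leaving out 1 replicate gave 0 to 1 subunits at an unadjusted p under 0.05 (1, Gabra3, without replicate 2), 2 to 5 that differed between experiments (2 without replicate 1 or 3) and 10 to 17 pathway probes at an unadjusted p under 0.05. For Gabra4, with no test, the mean pair difference was 0.281 over 5 pairs and -0.582 in the deposited table, which kept the non-uniform spot. For Gabra3 and Gabrb2, r over the experiments was -0.244 under the 75th percentile shift and -0.888 (exact permutation p = 0.0514) under normexp. The causes of these changes were not tested.

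Without the replicate block, 2 pathway probes had an unadjusted p under 0.05 in place of 13, and 81 of all tested probes in place of 3956. With the replicate block as a random effect 5 of all tested probes passed the adjusted threshold, in place of 0. Neither changed the call of a subunit. Among all probes at an unadjusted p under 0.05, 41.5% were higher in ACE, against 19.7% under the 75th percentile shift and 51.5% in the deposited table. Signals near background limit Gabra3, Gabra4, Gabra5 and Gabrb2.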
